A study of Mus musculus with 96 samples.

Results

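Fibroblasts (FBs) of mouse hearts on day 3 after acute myocardial infarction (AMI), called D3, were compared with FBs of hearts without infarction, called D0, for their mature microRNAs (miRNAs). The 4 FB libraries of each day were taken, 8 of the 96 small RNA libraries of the series, together with all 1978 mature miRNAs listed for them, of which 1175 had a count in at least 1 of the 8 libraries. All mice were male C57Bl/6J animals of 12 to 14 weeks. In the D3 mice a coronary artery, the left anterior descending branch, had been tied off for good, and the D0 mice were controls that had no surgery, so that effects of the infarct and of the surgery cannot be told apart. Each library was made from RNA of 3 mice, or of 2 where a sample was missing, and the 4 pools of a day, made from different mice, are the replicates of that group. The FBs of both days were the cells of the digested heart that bound neither to beads against CD45, a leukocyte protein, nor to beads against CD144, an endothelial protein, and that then attached to uncoated dishes within 40 minutes. The study describes them as predominantly positive for DDR2, a collagen receptor of FBs. They were thus obtained by exclusion and adhesion from the whole heart and not by sorting for a fibroblast protein, and no part of the infarct was taken separately. In such bulk libraries, fewer cells of a type and less RNA per cell cannot be told apart.

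Cardiac FBs build and maintain the collagen matrix of the heart. After an infarct they take part in the early inflammation, then divide, and then turn into contractile, matrix-producing myofibroblasts that form the scar. A miRNA is a short RNA cut from the stem of a hairpin precursor, and it guides Argonaute proteins to messenger RNAs that pair with its seed, which is bases 2 to 8. Both strands of the stem can be kept and are named 5p and 3p, and miRNAs with the same seed form a family that shares predicted targets. Several miRNAs have been studied in FBs, among them miR-21, which is linked to fibrosis, the miR-29 family, which targets collagen messages, and miR-199 and miR-214, a pair made from the antisense strand of Dnm3.

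The mature sequences below are those on which the results turn, with the seed in capitals. They are from RefSeq (GRCm38.p6), which gave a sequence for 474 of the 563 miRNAs tested. The first set is 1 seed family from 3 genomic clusters, shown because all 6 members were higher at D3.
miR-17-5p: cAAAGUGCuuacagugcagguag
miR-20a-5p: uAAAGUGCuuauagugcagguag
miR-106a-5p: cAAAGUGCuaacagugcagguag
miR-20b-5p: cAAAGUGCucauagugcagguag
miR-93-5p: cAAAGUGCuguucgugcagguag
miR-106b-5p: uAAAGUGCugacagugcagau
The next sequences were also higher at D3. They include miR-7a and miR-7b, which are 2 edits apart, miR-21a-5p, which had the largest gain in level of all miRNAs tested, and miR-155-5p. The pairs miR-379-3p and miR-411-3p and miR-200a-3p and miR-141-3p share their seeds, as do miR-344d-3p and miR-344e-3p.
miR-7a-5p: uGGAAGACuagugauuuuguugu
miR-7b-5p: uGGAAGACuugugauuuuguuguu
miR-21a-5p: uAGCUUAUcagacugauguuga
miR-155-5p: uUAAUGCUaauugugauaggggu
miR-31-5p: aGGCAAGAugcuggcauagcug
miR-134-5p: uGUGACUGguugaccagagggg
miR-379-3p: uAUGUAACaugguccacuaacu
miR-411-3p: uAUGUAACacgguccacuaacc
miR-182-5p: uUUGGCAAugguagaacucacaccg
miR-200a-3p: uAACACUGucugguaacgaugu
miR-141-3p: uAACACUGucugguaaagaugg
miR-344d-3p: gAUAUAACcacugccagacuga
miR-344e-3p: gAUAUAACcaaagccugacuau
The last set was lower at D3, except let-7i-5p, which is shown beside its relatives because it has their seed and did not fall with them.
miR-99a-5p: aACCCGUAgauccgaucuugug
miR-100-5p: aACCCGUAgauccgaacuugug
miR-125a-5p: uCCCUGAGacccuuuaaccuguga
miR-125b-5p: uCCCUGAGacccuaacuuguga
miR-181a-5p: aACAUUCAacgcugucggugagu
miR-676-3p: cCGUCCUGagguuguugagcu
miR-195a-3p: cCAAUAUUggcugugcugcucc
let-7a-5p: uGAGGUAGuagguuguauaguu
let-7b-5p: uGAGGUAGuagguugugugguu
let-7c-5p: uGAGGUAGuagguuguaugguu
let-7i-5p: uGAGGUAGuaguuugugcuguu

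The total count on mature miRNAs was 2217588 to 19196750 in the D0 libraries and 10117069 to 21688283 in the D3 libraries. The share of reads that matched no mature miRNA was 29.6% ± 1.46 (SD, n = 4) at D0 and 37.0% ± 2.41 (n = 4) at D3, with every D3 library above every D0 library (two-sided exact permutation test over 70 arrangements, p = 0.0286, the smallest it can give), and its part in the results below was not tested. Replicate 2 of D0 had the lowest depth and stood apart, with a mean distance to the other D0 libraries of 1.27 on the log2 scale against 0.79 to 0.83 for the others, and at D3 this distance was 0.61 to 0.71. The study left out 1 FB library of D0 as an outlier without naming it. All 4 were kept here, and values without replicate 2 are given where the call changed or the value moved most.

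Levels are given as CPM, the counts of a miRNA in a library scaled to a common total, with libraries scaled by the trimmed mean of M values (TMM). In each series of values the libraries are in the order of their replicate numbers. Changes are log2 fold changes of D3 against D0 from edgeR's quasi-likelihood test, fitted to the 24 FB libraries of all 6 days, and a miRNA was said to have risen or fallen where the Benjamini-Hochberg adjusted p over all 563 miRNAs tested was under 0.05. At D3, 242 of the 563 miRNAs (43%) had changed, 129 (22.9%) upward and 113 (20.1%) downward. The 4 values of D3 did not overlap with the 4 of D0 in 206 miRNAs (36.6%), of which 112 (19.9%) were above and 94 (16.7%) below. Without replicate 2 of D0, 219 miRNAs were past the threshold, 126 upward and 93 downward.

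The split between rises and falls depended on the scaling. TMM factors were 0.89 to 0.97 at D0 and 1.11 to 1.25 at D3, and the median log2 fold change over the 563 miRNAs was 0.06. Scaling by library size alone gave a median of 0.38, and 204 miRNAs rose and 50 fell. A change is therefore a change relative to the median miRNA, and a miRNA that fell by less than about this shift is given with both values below. Of the 242 changes none turned into a change of the other sign under library size, and 179 were still past the threshold.

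The cell type markers were read first. Of the fibroblast-rich miRNAs miR-199a and miR-214, miR-199a was among the abundant ones at both times. miR-214-3p was far lower, at 372 to 505 CPM at D0 and 473 to 532 CPM at D3. For miR-199a-3p, which has the same counts as miR-199b-3p in every FB library and is named for both, the D0 libraries held 41965, 33562, 51661 and 48449.9 CPM and the D3 libraries 50841, 48097, 54196 and 39127 CPM. The groups overlapped, with a log2 fold change of 0.13 (95% interval -0.16 to 0.42, adjusted p = 0.485). None of the 6 tested arms of miR-199a, miR-199b and miR-214 passed the threshold, with log2 fold changes of 0.09 to 0.22, whereas under library size alone all 6 rose with a median of 0.46. The summed level of the list was 54247 to 88333 CPM at D0 and 64083 to 88558 CPM at D3.

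Markers of other cells were present in both groups. Of the cardiomyocyte list, 5 of the 10 arms with counts could be tested and none passed the threshold, and the summed level was 2329.7 to 5112 CPM at D0 and 1871 to 3015 CPM at D3, nearly all of it miR-1a-3p. miR-1a-3p held 3258, 3047, 2292 and 5045 CPM at D0 and 1835, 1943, 2928 and 2877 CPM at D3 (log2 fold change -0.51, adjusted p = 0.312), whereas miR-208a-3p, which is restricted to cardiac muscle, was at 0.497 to 4.74 CPM at D0 and 1.67 to 3.10 CPM at D3. The 5p and 3p arms of the endothelial miR-126a summed to 23558 to 32376 CPM at D0 and 20012 to 39647 CPM at D3, and neither passed the threshold. Endothelial miRNA was thus abundant in both groups, although the FB fraction had been depleted of CD144-positive cells.

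Of the leukocyte list, all 8 arms could be tested and none rose, and 2 of very low level fell, miR-150-3p and miR-342-5p. The list summed to 302 to 310.2 CPM at D0 and 213.5 to 348 CPM at D3. miR-142a-3p, which leukocytes make in large amounts, held 45.2, 28.3, 99.7 and 43.4 CPM at D0 and 58.4, 73.2, 20.5 and 67.9 CPM at D3, without separation of the groups (log2 fold change 0.00, 95% interval -0.95 to 0.95). miR-223-3p, the main miRNA of granulocytes, was at 0.193 to 1.49 CPM at D0 and 0.610 to 1.69 CPM at D3. Its log2 fold change was 1.61 (adjusted p = 0.181), and 1.94 without replicate 2 of D0. It passed the threshold in 2 of 15 alternative settings. For miR-451a of red cells the D0 libraries held 319, 282, 906 and 170.0 CPM and the D3 libraries 725, 1078, 248 and 1189 CPM (log2 fold change 0.95, adjusted p = 0.167), and the libraries of a day spread widely.

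The miR-17 seed family showed the largest rise among abundant miRNAs. These miRNAs are made from 3 related clusters that promote cell division and survival. The D0 libraries held 215, 160.1, 475 and 479 CPM of miR-20a-5p and the D3 libraries 2089.6, 2284, 1437 and 1129 CPM, a log2 fold change of 2.38 ± 0.32 (SE, n = 4 per group, adjusted p = 2.60e-06). All D3 libraries lay well above all D0 libraries. miR-17-5p held 91.9, 71.1, 174 and 162 CPM at D0 and 756, 837, 496.9 and 334 CPM at D3 (log2 fold change 2.27, adjusted p = 2.60e-06). miR-106a-5p, which differs from miR-17-5p in 1 base, so that reads of the 2 may have been shared, held 74.9, 62.1, 152.02 and 139.8 CPM at D0 and 638, 720.4, 415 and 281 CPM at D3 (log2 fold change 2.25). In all 3, replicates 1 and 2 were the lower ones at D0 and the higher ones at D3.

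The 6 tested members with this seed all rose, with log2 fold changes of 1.20 to 2.38 and a median of 2.25. The 2 from the miR-106b-25 cluster, in Mcm7, a gene of DNA replication, changed least: miR-93-5p held 249, 189.9, 479.6 and 356 CPM at D0 and 996, 1244, 700.4 and 528 CPM at D3 (log2 fold change 1.44, adjusted p = 9.49e-05), and miR-106b-5p had a log2 fold change of 1.20. Rises within the clusters were uneven and depended on the scaling. Of the miR-17-92 cluster, which lies in exons of the long RNA Mir17hg at chr14:115043671-115044506 on the plus strand, 5 of 9 tested arms rose, with a median of 1.02: both arms of miR-17 and of miR-18a, and miR-20a-5p. miR-18a-5p had a log2 fold change of 2.08, whereas miR-19a-3p, miR-19b-3p and miR-92a-3p had 0.56, 0.44 and 0.10 and did not pass the threshold (adjusted p = 0.114, 0.222 and 0.724). Under library size alone 7 of the 9 rose, with miR-19a-3p at 0.90 and miR-19b-3p at 0.78. Both tested arms of the miR-106a-363 cluster rose, miR-106a-5p and miR-20b-5p, the latter at 0.647 to 2.64 CPM at D0 and 4.47 to 9.69 CPM at D3. Of the miR-106b-25 cluster 3 of 6 rose, and miR-25-3p had a log2 fold change of 0.02 (95% interval -0.29 to 0.33), whereas under library size alone 5 of 6 rose and miR-25-3p was at 0.35.

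**Figure D1:**
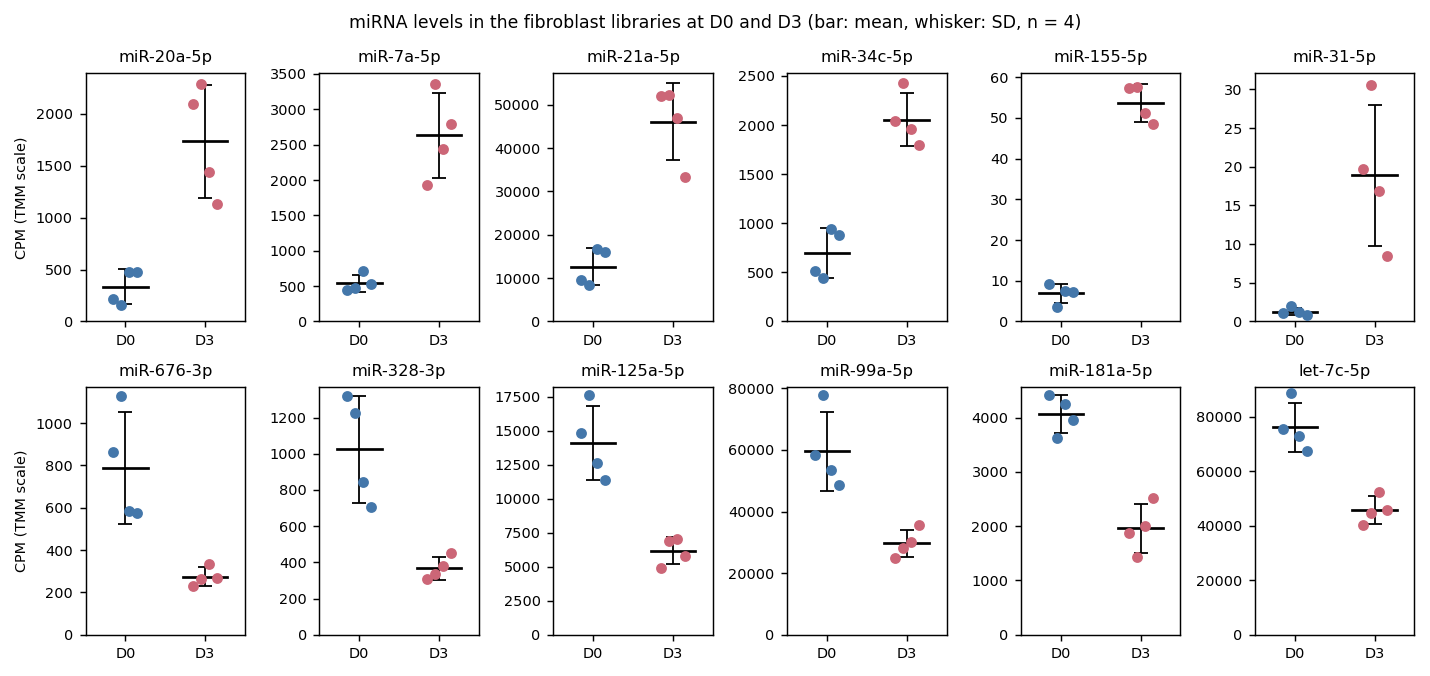
Level of 12 miRNAs in the 8 FB libraries, in CPM on the TMM scale (linear axis from 0), with D0 in blue and D3 in red, the mean as a bar and the SD as a whisker (n = 4). In each panel the 4 points of D3 lie all above or all below the 4 of D0, and miR-20a-5p rose from 332 ± 169 to 1735 ± 542.5 CPM.

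miR-7 rose to a similar extent. miR-7a and miR-7b, best known from neurons and endocrine cells, share their seed and are made from 3 hairpins, 1 of which, at chr13:58392779-58392886 (minus strand), lies in an intron of Hnrnpk. miR-7a-5p held 443, 474, 716 and 523 CPM at D0 and 1925, 3363, 2440.2 and 2794 CPM at D3, a 4.88-fold rise (log2 fold change 2.29 ± 0.24, SE, n = 4 per group, adjusted p = 7.01e-08). miR-7b-5p gave nearly the same values, from 491 ± 117 CPM (SD, n = 4) at D0 to 2492 ± 589 CPM at D3, and because their sequences are 2 edits apart the counting may have assigned reads of one to the other. The other arm, miR-7a-1-3p, at 1.99 to 4.58 CPM at D0 and 4.88 to 7.05 CPM at D3, also rose (log2 fold change 0.91, adjusted p = 0.004). All 3 tested arms of the family thus rose without overlap between the days.

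miR-21a-5p, the miRNA most often linked to fibrosis, was the most abundant of the miRNAs that rose. The D0 libraries held 9570.4, 8365, 16629 and 15968 CPM and the D3 libraries 52017, 52131, 46832 and 33321 CPM, a 3.65-fold rise (log2 fold change 1.87 ± 0.25, SE, adjusted p = 2.18e-06). The lowest D3 library was still above the highest D0 library by a wide margin. Its hairpin, at chr11:86584067-86584158 (minus strand) in GRCm38, overlaps an exon of Vmp1 (GENCODE vM21). The other arm, miR-21a-3p, was at 1.49 to 9.74 CPM at D0 and 5.53 to 19.0 CPM at D3 and did not pass the threshold (log2 fold change 0.71, adjusted p = 0.126).

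The miR-34 family, targets of the p53 protein, rose with 4 of 5 tested arms and a median log2 fold change of 1.42. miR-34c-5p held 518, 443, 941 and 880.2 CPM at D0 and 2039, 2428, 1962 and 1793 CPM at D3 (log2 fold change 1.56 ± 0.24, SE, adjusted p = 1.08e-05). Its neighbour miR-34b on chromosome 9 rose with both arms, miR-34b-5p by 0.83 and miR-34b-3p by 1.42 on the log2 scale, without overlap. The arm that did not pass, miR-34a-5p, is made from another locus, and had a log2 fold change of 0.25 (95% interval -0.18 to 0.68). Under library size alone all 5 arms rose, and the difference between the loci was not tested.

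Among miRNAs known from inflammation, miR-155, miR-146b and miR-147 rose, and miR-146a passed the threshold only under library size alone. miR-155-5p, which is switched on by NF-kB signals, held 9.22, 3.48, 7.48 and 7.36 CPM at D0 and 57.4, 57.7, 51.2 and 48.4 CPM at D3, a 7.32-fold rise (log2 fold change 2.87 ± 0.29, SE, adjusted p = 7.01e-08). The D3 values lay within a narrow range far above D0. Its hairpin, at chr16:84714140-84714204 (plus strand), is in an exon of the long RNA Mir155hg. miR-146b-5p, a brake on the same signals, held 191, 199.9, 168 and 217 CPM at D0 and 356, 413, 517 and 419 CPM at D3 (log2 fold change 1.14, adjusted p = 2.15e-05). miR-146a-5p, which has the same seed and differs in 2 bases, held 706, 551, 631 and 694 CPM at D0 and 691, 756, 782 and 742 CPM at D3, with overlap (log2 fold change 0.20, 95% interval -0.18 to 0.58, and 0.52 under library size alone). Its difference in change from miR-146b-5p was not tested. Of the 7 tested arms of this list 6 rose (7 under library size alone), the rest being the 3p arms of miR-155 and miR-146b and both arms of miR-147, all at low levels. miR-155-3p had only 3 counts in all at D0 and 45 at D3, and passed the filter on counts only through days other than D0. Over the pooled counts this is a 10.0-fold ratio, with an exact 95% counting interval of 3.22 to 50.5. No arm of the leukocyte list rose past the threshold, and the part of leukocytes in these rises was not tested.

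miR-210-3p, a target of the hypoxia factor HIF1A, held 34.8, 26.3, 62.7 and 52.7 CPM at D0 and 133, 93.4, 70.3 and 43.4 CPM at D3 (log2 fold change 0.93, adjusted p = 0.00685), and replicate 4 of D3 lay within the range of D0. Of the miR-132 and miR-212 pair, which is made from 1 transcript on chromosome 11, both 3p arms rose, with miR-132-3p at 26.3 to 34.7 CPM at D0 and 50.2 to 79.0 CPM at D3 and miR-212-3p at 1.99 to 4.17 CPM and 5.60 to 7.31 CPM, whereas the 5p arms had log2 fold changes of 0.57 and 0.33 and did not pass the threshold (adjusted p = 0.0577 and 0.203). Under library size alone all 4 arms rose, and miR-132-5p passed the threshold in 7 of 16 alternative settings. Of the cluster of miR-322, miR-503, miR-351 and miR-542 on the X chromosome, known from muscle and cell cycle control, 5 of 12 arms rose and none fell, while 22.9% of all tested miRNAs rose. Under library size alone 7 of the 12 rose, against 204 of all 563. miR-503-5p held 23.0, 17.9, 15.7 and 23.8 CPM at D0 and 67.5, 61.2, 44.6 and 34.4 CPM at D3 (log2 fold change 1.36, adjusted p = 2.97e-04), and miR-322-5p and miR-322-3p had log2 fold changes of 0.97 and 0.63, the latter call being lost without replicate 1 or 3 of D0 or replicate 4 of D3.

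miR-15, miR-16, miR-195 and miR-497, which hold back the cell cycle, did not move together. Both arms of miR-15b rose, miR-15b-5p at 23.9 to 64.8 CPM at D0 and 89.3 to 141 CPM at D3 (log2 fold change 1.29, adjusted p = 6.54e-05) and miR-15b-3p by 0.96. Both arms of miR-195a fell. miR-195a-3p held 259.8, 319.7, 257 and 217 CPM at D0 and 103, 92.5, 114 and 159.6 CPM at D3 (log2 fold change -1.17, adjusted p = 2.34e-05), and miR-195a-5p had a log2 fold change of -0.60, a call lost under library size alone (-0.27). miR-16-5p, the most abundant of the family, had a log2 fold change of -0.17 (95% interval -0.53 to 0.19), and the median of the 10 tested arms was 0.00.

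The imprinted Dlk1-Dio3 region of chromosome 12, which holds the largest miRNA cluster of the mouse, gave 39 of the 129 rises. Its miRNAs are expressed from the maternal chromosome and are typical of embryonic tissue and of mesenchymal cells. Of 98 arms with counts 73 were tested, 39 rose and 2 fell, with a median log2 fold change of 0.71 against 0.06 over all miRNAs. Of the 3p arms 26 of 42 rose with a median of 1.03, and of the 5p arms 13 of 31 with a median of 0.48. Position was read only for arms with a RefSeq sequence, so that some tested arms are left out, among them miR-485-5p, which fell. By position, 28 of 45 such arms rose in the group of 36 hairpins at chr12:109709060-109747960, 5 of 18 in the group of 14 hairpins at chr12:109563692-109595388, and 4 of 4 (both arms of miR-341, miR-370-3p and miR-1188-5p) at chr12:109611500-109618336, all on the plus strand.

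The most abundant arm of this region was without a call. It was miR-127-3p, which held 4733 to 5802 CPM at D0 and 3715 to 5244 CPM at D3 (log2 fold change -0.16, adjusted p = 0.476), and the summed level of the tested arms was 11486 ± 575 CPM (SD, n = 4) at D0 and 13643 ± 2608 CPM (n = 4) at D3, with overlap. miR-134-5p held 134, 154, 142 and 124.7 CPM at D0 and 278, 529, 387 and 249 CPM at D3 (log2 fold change 1.38 ± 0.25, SE, adjusted p = 6.95e-05). miR-379-3p held 127, 161, 181 and 167 CPM at D0 and 318, 559, 370.0 and 201 CPM at D3 (log2 fold change 1.19, adjusted p = 1.13e-04). In both, the groups did not overlap and replicate 4 of D3 was the nearest to D0. miR-411-3p, which differs from miR-379-3p in 2 bases and has nearly equal counts, had a log2 fold change of 1.17. Among arms of lower level, miR-323-3p was at 3.68 to 7.46 CPM at D0 and 11.8 to 37.3 CPM at D3 (log2 fold change 2.28), miR-1193-3p at 1.99 to 5.56 CPM and 10.0 to 27.1 CPM (2.00) and miR-376b-3p at 4.97 to 6.95 CPM and 9.52 to 29.5 CPM (1.87). The 2 arms that fell were miR-485-5p, by 1.32, and miR-668-3p, by 0.86 on the log2 scale.

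**Figure D2:**
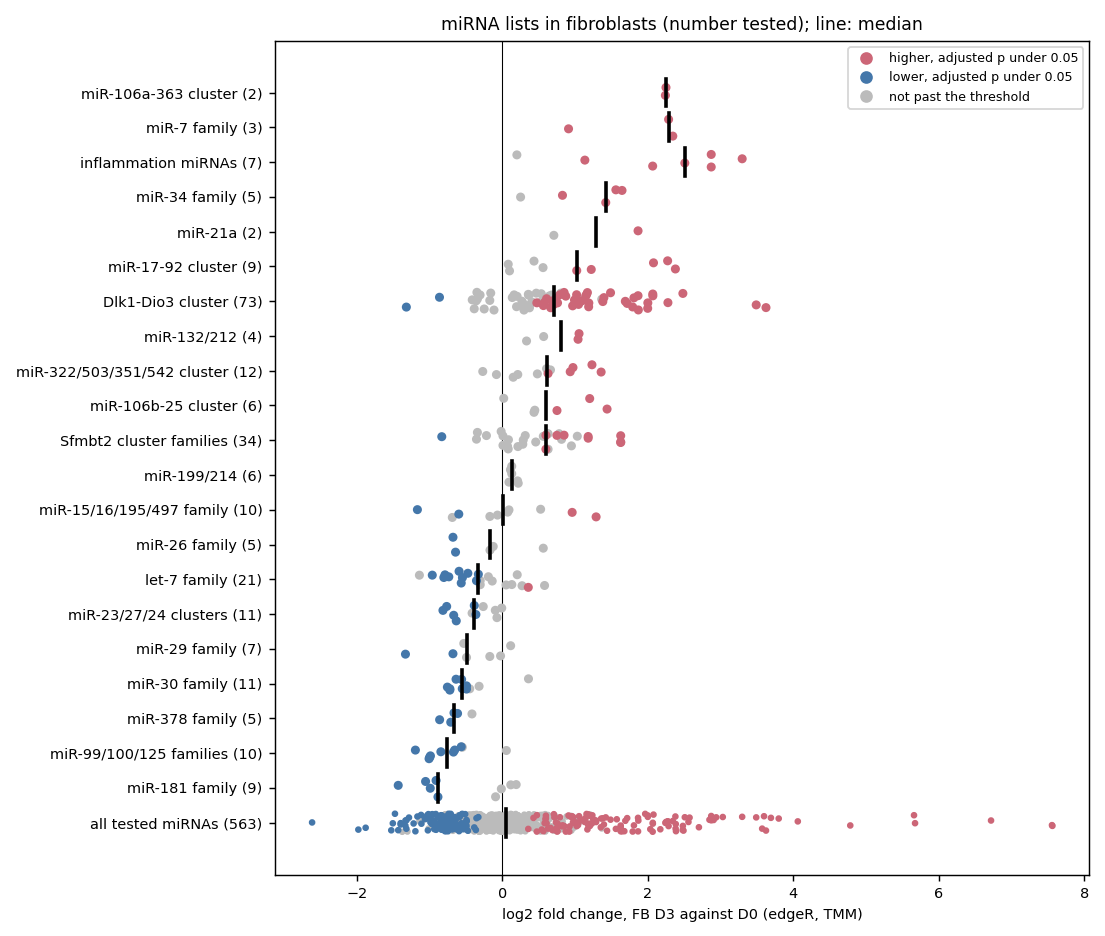
Log2 fold change at D3 against D0 of each tested miRNA (points) in 21 lists and over all 563, with the median as a vertical line; red points rose and blue points fell past an adjusted p of 0.05, and grey points did not pass. The miR-106a-363, miR-7 and inflammation lists have the highest medians, the lists of miR-181 and of miR-99, miR-100 and miR-125 the lowest, and the median over all miRNAs is 0.06.

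The miR-297, miR-466, miR-467 and miR-669 families are known from the Sfmbt2 intron cluster on chromosome 2, a rodent-specific group with near-identical members. They were taken by name and not by position, and miR-467h lies on chromosome 9. Of their 34 tested arms 9 rose and 1 fell. The share that rose was near the 22.9% of all tested miRNAs. Several of these have identical counts, so that the 9 are fewer independent values, and their summed level was only 69.6 to 87.7 CPM at D0 and 94.8 to 103 CPM at D3. The most abundant tested member, miR-467a-5p, had a log2 fold change of 0.32 (adjusted p = 0.18).

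A further 12 miRNAs of low level, from 4 families with members among the largest fold changes, were chosen after their values were seen. The miR-183/96/182 cluster on the minus strand of chromosome 6, known from sensory cells, rose with all 3 tested arms. miR-182-5p held 4.47, 4.47, 6.00 and 4.58 CPM at D0 and 55.2, 88.9, 69.8 and 42.3 CPM at D3, a 12.9-fold rise (log2 fold change 3.69 ± 0.43, SE, adjusted p = 3.72e-07). miR-183-5p rose by 3.80 and miR-96-5p by 3.03 on the log2 scale, both without overlap. The hairpins lie at chr6:30165918-30169737. The miR-200 family, which keeps epithelial cells from turning mesenchymal, rose with all 5 arms named here, from both of its loci on chromosomes 4 and 6. miR-200a-3p held 5.17, 3.48, 1.93 and 3.11 CPM at D0 and 30.0, 17.6, 34.6 and 23.5 CPM at D3 (log2 fold change 2.94, adjusted p = 6.69e-07). miR-200b-3p, miR-429-3p, miR-141-3p and miR-200c-3p had log2 fold changes of 2.39, 2.17, 2.56 and 1.35.

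miR-31, studied in epithelia and in tumours, rose with both arms. The 3p arm, miR-31-3p, had only 2 counts in all at D0 and 94 at D3. Over the pooled counts this is a 31.4-fold ratio with an exact 95% counting interval of 8.46 to 263. miR-31-3p passed the filter on counts only through days other than D0. miR-31-5p held 1.08, 1.99, 1.22 and 0.818 CPM at D0, from 20, 4, 19 and 10 counts, and 19.7, 30.6, 16.9 and 8.42 CPM at D3, from 418, 363, 245 and 207 counts (log2 fold change 4.06 ± 0.43, SE, adjusted p = 7.17e-08). This was the largest rise among all miRNAs that averaged 10 CPM or more over the 8 libraries. miR-344d-3p had 3, 0, 0 and 0 counts at D0 and 64, 42, 63 and 72 at D3 (adjusted p = 3.33e-07). Over the pooled counts this is a 53.7-fold ratio with an exact 95% counting interval of 18.2 to 262, and all of its D0 counts came from 1 library. The interval leaves out the spread between libraries, and miR-344d-3p passed the filter on counts only through days other than D0. miR-344e-3p, which shares its seed and lies in the same stretch of chromosome 7, had no count at D0 and 87 in all at D3, and was at least 19.4-fold higher when 3 counts over the D0 libraries together are taken as the limit of detection. Fold changes at so few counts are imprecise.

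Large falls were fewer than large rises. Of the 117 changes of at least 1 on the log2 scale, 92 were rises and 25 falls. The rises include miRNAs with few or no counts at D0, such as miR-344d-3p and miR-344e-3p. With a filter at a mean of 10 CPM, 76 miRNAs rose and 81 fell by any amount. The 2 largest falls without overlap at a mean of 100 CPM or more were those of miR-676-3p and miR-328-3p. miR-676-3p, whose hairpin at chrX:100381097-100381185 (plus strand) lies in an intron of Eda, held 864, 1128, 587 and 575 CPM at D0 and 229, 264, 335 and 267 CPM at D3 (log2 fold change -1.53 ± 0.23, SE, adjusted p = 8.52e-06), and its other arm, miR-676-5p, fell by 1.22. miR-328-3p, which is known to act on cardiac calcium channels, held 1321, 1226, 845 and 705 CPM at D0 and 306, 335, 381 and 452 CPM at D3 (log2 fold change -1.47, adjusted p = 1.08e-05). In each of these miRNAs the groups did not overlap. miR-122-5p, the main miRNA of hepatocytes, held 146, 267, 106 and 113 CPM at D0 and 47.6, 47.5, 69.6 and 87.4 CPM at D3 (log2 fold change -1.32, adjusted p = 0.00147), and miR-122b-3p was listed with nearly the same counts (-1.33). Without replicate 2 of D0, the highest, they were at -0.91 and -0.93, and both kept the call. The presence of a liver miRNA in heart cells stands as a measured value, and its part in other results was not tested.

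The summed level of the miR-99, miR-100 and miR-125 families at D3 was 0.50 of that at D0. They are made from 3 related clusters, each with a let-7, and are known as brakes on growth, miR-99 and miR-100 through mTOR. Of 10 tested arms 8 fell and none rose, with a median log2 fold change of -0.76, and the summed level was 143919 to 217172 CPM at D0 and 75224 to 97836 CPM at D3. miR-99a-5p, from an intron of the long RNA Mir99ahg at chr16:77598936-77599000 (plus strand), held 58319, 77949, 53538 and 48484 CPM at D0 and 25029.5, 28021, 30002 and 35628 CPM at D3 (log2 fold change -1.01 ± 0.15, SE, adjusted p = 1.08e-05). miR-125b-5p held 39894, 41007, 36180.0 and 33092 CPM at D0 and 18397, 19331, 19596 and 17910.0 CPM at D3 (log2 fold change -0.997, adjusted p = 1.99e-05), and the D3 libraries were close to each other. miR-125a-5p, whose hairpin at chr17:17830812-17830879 (plus strand) overlaps an exon of Spaca6, held 14799, 17614, 12656 and 11400.5 CPM at D0 and 4940.2, 6917, 7054 and 5779 CPM at D3 (log2 fold change -1.19, adjusted p = 1.08e-05). miR-100-5p, 1 base away from miR-99a-5p, fell by 0.99. Under library size alone 5 of the 10 fell and none rose, with a median of -0.43.

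The miR-181 family, best known from lymphocyte development, fell in a like manner. All 4 tested 5p arms, which share the seed, fell, with log2 fold changes of -1.43 to -0.88, and of the 5 tested 3p arms 1 fell. miR-181a-5p held 4422, 3628, 4259 and 3956 CPM at D0 and 1881, 1426, 2006 and 2523 CPM at D3 (log2 fold change -1.05 ± 0.18, SE, adjusted p = 4.49e-05). miR-181c-5p fell most, by 1.43, although replicate 2 of D0, at 43.7 CPM against 115 to 136 CPM in the other D0 libraries, lay within the range of D3. miR-181a-2-3p fell by 0.99. Under library size alone the same number of arms fell, 5 of 9.

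let-7, the family that rises as cells differentiate, had the highest summed level of the lists at both times. Its tested arms summed to 392206 ± 30391 CPM (SD, n = 4) at D0 and 298036 ± 32034 CPM (n = 4) at D3, without overlap. Of 21 tested arms 10 fell and 1, let-7j, rose, whereas under library size alone 3 fell and 5 rose and the median moved from -0.33 to -0.01. let-7c-5p held 75537, 88650.3, 73060.4 and 67450.2 CPM at D0 and 40264, 44791, 52381 and 45734 CPM at D3 (log2 fold change -0.73, adjusted p = 3.75e-05, and -0.41 under library size alone). let-7b-5p fell by 0.80, let-7d-3p by 0.96 and let-7b-3p by 0.79, the latter not under library size alone. let-7a-5p, the most abundant miRNA of both days, had a log2 fold change of -0.47, and let-7f-5p of -0.35 (adjusted p = 0.0158). let-7j, at 21475, 25528, 29324 and 23573 CPM at D0 and 26257, 37311, 32678 and 31800.0 CPM at D3, rose by 0.36 with overlap (adjusted p = 0.0393), and its sequence differs from that of let-7i-5p by 3 bases, so that reads may have been shared. The calls of let-7a-5p and let-7f-5p were lost under library size alone, at -0.15 and -0.03, and the second also without replicate 2 of D0 or replicate 1 or 2 of D3.

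The fall was not shared by all members with the let-7 seed. Of the 9 tested, 7 fell and let-7i-5p and miR-98-5p did not. let-7i-5p held 27136, 28654, 30724 and 24934 CPM at D0 and 27478, 37430.0, 35364 and 34329.7 CPM at D3 (log2 fold change 0.27, 95% interval -0.02 to 0.56), and miR-98-5p had 0.21 (95% interval -0.12 to 0.53). Under TMM let-7i-5p is thus among the abundant miRNAs of both days without a call, together with miR-199a-3p, miR-126a-3p, miR-148a-3p (0.06, 95% interval -0.24 to 0.37) and miR-199a-5p (0.22, -0.14 to 0.58). Under library size alone let-7i-5p rose by 0.60 (adjusted p = 0.00108). The difference in change between let-7i-5p and its relatives was not tested.

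Other families of differentiated cells fell by less than 2-fold. Of the miR-30 family, known to hold back connective tissue growth factor, 8 of 11 arms fell, and under library size alone 3 fell and 1 rose. miR-30c-5p held 6344, 7492, 7455 and 7311 CPM at D0 and 3995, 4086, 4561 and 4729.6 CPM at D3 (log2 fold change -0.72, adjusted p = 7.68e-05), and the 3p arms of miR-30a and miR-30e fell by 0.72 and 0.75. Of the miR-23/27/24 clusters 6 of 11 arms fell (2 under library size alone), with miR-24-3p at 9922 to 12554 CPM at D0 and 6408 to 6672 CPM at D3 (log2 fold change -0.76, adjusted p = 6.10e-05), miR-24-1-5p falling by 0.81 and miR-24-2-5p by 0.67, a call lost under library size alone. The miR-23 arms did not pass the threshold, with miR-23a-3p at -0.07 and miR-23b-3p at -0.10. miR-26a-5p, among the 5 most abundant at D0, held 71592, 68574, 61754 and 57599 CPM at D0 and 39686, 37094, 45216 and 40343 CPM at D3 (log2 fold change -0.68, adjusted p = 6.13e-05), and miR-26b-5p fell by 0.64 with overlap, a call lost under library size alone (-0.31) and without replicate 2 of D3.

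The miR-378 family, whose member miR-378a is made from a gene of mitochondrial metabolism, fell with 4 of 5 arms and a median of -0.66, and no arm was past the threshold under library size alone (median -0.34). miR-378a-3p held 650.2, 681, 699 and 651 CPM at D0 and 375, 339.8, 437 and 541 CPM at D3, and replicates 1 and 2 of D3 were the lowest, so that its call, like those of miR-378b (-0.86) and miR-378d (-0.71), was lost without either of them. miR-151-3p, from the gene of the focal adhesion kinase, fell by 0.88, and miR-151-5p, at 999, 284, 924 and 767 CPM at D0 and 312, 148, 149 and 200.5 CPM at D3, by 1.88, with overlap through replicate 2 of D0. miR-28a-5p of the same family had a log2 fold change of -0.46 (adjusted p = 0.0535).

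miR-29, whose targets include several collagen messages, could not be called as a family with all libraries kept. miR-29a-3p held 7531, 3421, 12396 and 10771 CPM at D0 and 8759, 4667, 5394 and 4835 CPM at D3, and the D0 libraries spread over more than the whole D3 group (log2 fold change -0.53, 95% interval -1.11 to 0.05, adjusted p = 0.14). Without replicate 2 of D0, which was the lowest, the log2 fold change was -0.74 and the adjusted p 0.0263. miR-29c-3p gave -0.49 with all libraries (adjusted p = 0.193) and -0.71 without this library (adjusted p = 0.0433). miR-29b-3p, at 246, 37.8, 447 and 299 CPM at D0 and 216, 59.3, 61.6 and 74.4 CPM at D3, fell by 1.33 with overlap (adjusted p = 0.0271). Its call was lost without replicate 3 or 4 of D0 and without replicate 2, 3 or 4 of D3. Without replicate 2 of D0 its log2 fold change was -1.63 (adjusted p = 0.00275). The 3p arms of miR-29a, miR-29b and miR-29c were thus all past the threshold without that library. Of the 7 tested arms 2 fell, and none under library size alone.

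Of miR-143 and miR-145a, made from 1 transcript of smooth muscle and FBs, both 3p arms fell and neither 5p arm passed the threshold. The 5p to 3p ratio rose for miR-143 (by 0.91 on the log2 scale, adjusted p = 0.0218, limma) and did not pass the threshold for miR-145a (0.60, adjusted p = 0.116). miR-143-3p held 27429.9, 29163, 29189 and 24711 CPM at D0 and 14445, 14962, 18110.0 and 20928 CPM at D3 (log2 fold change -0.69, adjusted p = 9.02e-05), and miR-145a-3p fell by 0.50, a call lost without replicate 3 of D0 and without replicate 2 or 4 of D3. miR-145a-5p, which drives the contractile state of smooth muscle, held 1012, 765, 1135 and 1017 CPM at D0 and 934, 792, 1074 and 1469 CPM at D3, with overlap (log2 fold change 0.12, 95% interval -0.32 to 0.56). miR-143-5p had a log2 fold change of 0.16. Under library size alone 1 of the 4 arms fell.

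Several lists had no more than 2 calls, and over all tested miRNAs 22.9% rose. None of the 6 tested arms of miR-10 and miR-196, which lie in the Hox gene clusters, passed the threshold, with miR-10a-5p at -0.21 (95% interval -0.66 to 0.25) and miR-10b-5p at -0.24 (-0.67 to 0.19), nor did any of the 6 of the miR-148 and miR-152 family or of the 4 of miR-140 and miR-455, miRNAs of cartilage and connective tissue. miR-140-3p had a log2 fold change of -0.47 (adjusted p = 0.112), although its D3 libraries were all below those of D0. Of the miR-130 and miR-301 family 2 of 7 arms rose, both of low level, and miR-130a-3p had 0.01 (95% interval -0.41 to 0.43). Of miR-221 and miR-222, which lower the cell cycle inhibitor p27, miR-221-3p rose by 0.48 with overlap (adjusted p = 0.0296 with and 0.0548 without replicate 2 of D0, and also lost without replicate 1 of D0 or replicate 3 of D3), and miR-222-3p had -0.07 (95% interval -0.40 to 0.25). Under library size alone more arms rose. These were 1 of 6 for miR-10 and miR-196, 4 of 6 for miR-148 and miR-152 and 1 of 4 for miR-140 and miR-455. For miR-130 and miR-301 they were 3 of 7, and for miR-221 and miR-222 3 of 4.

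How far D3 stood apart from the days around it was tested in the same fit, by contrasts in which the D0 libraries cancel. Against D0, 45 of 563 miRNAs (7.99%) had changed on D1, while D7 had 257 (45.6%), D14 had 139 (24.7%) and D28 had 38 (6.75%), and these comparisons share their D0 libraries with that of D3. Between D3 and D1, 156 miRNAs (27.7%) differed, 86 (15.3%) higher and 70 (12.4%) lower at D3, and 112 and 32 under library size alone. Between D3 and D7, 165 (29.3%) differed, 88 (15.6%) higher and 77 (13.7%) lower at D3, and 102 and 58 under library size alone. The count against D1 varied with single libraries: it was 97 without replicate 2 of D3, 104 without replicate 1 of D3 and 109 without replicate 3 of D1.

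Many Dlk1-Dio3 miRNAs were higher at D3 than at D1. Of the 73 tested, 40 were higher at D3 than at D1 and 2 lower, and against D7 3 were higher and 17 lower. miR-134-5p was at 119 to 148 CPM at D1, 249 to 529 CPM at D3 and 195.2 to 519 CPM at D7 (D3 minus D1 on the log2 scale 1.40, adjusted p = 1.69e-04). The difference between D3 and D1 was 1.47 for miR-379-3p and 1.45 for miR-411-3p, the largest at 100 CPM or more. miR-182-5p was at 4.83 to 7.49 CPM at D1, 42.3 to 88.9 CPM at D3 and 53.2 to 194 CPM at D7, and miR-31-5p at 2.06 to 2.80, 8.42 to 30.6 and 16.2 to 28.6 CPM. At a mean of 100 CPM or more, the largest drops from D1 to D3 were those of miR-151-5p (-1.16, adjusted p = 0.0102), miR-328-3p (-1.06, adjusted p = 9.43e-04) and miR-122b-3p (-1.02, adjusted p = 0.0168). Without replicate 2 of D3 the calls of miR-151-5p and miR-122b-3p were lost, and that of miR-122b-3p also without replicate 1 of D3 or replicate 2 of D1.

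All 6 tested members of the miR-17 seed family were past the threshold against D0 at D1 as well as at D3. miR-20a-5p was at 764 to 2033 CPM at D1, 1129 to 2284 CPM at D3 and 184 to 233 CPM at D7, so that D3 exceeded D7 by 2.98 on the log2 scale (adjusted p = 2.86e-07) and D1 by 0.56 (adjusted p = 0.178). miR-17-5p and miR-106a-5p exceeded D7 by 2.87 and 2.86. Of the miR-17-92 cluster 8 of 9 tested arms were higher at D3 than at D7, and 5 of 6 of the miR-106b-25 cluster. miR-7a-5p was at 1001 to 1678 CPM at D1 and 494 to 1119 CPM at D7, below D3 on both sides (D3 minus D1 1.02, D3 minus D7 1.52, adjusted p = 0.00175 and 2.81e-05).

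Other miRNAs followed other courses. miR-21a-5p was at 13356 to 28112 CPM at D1, 33321 to 52130.5 CPM at D3 and 28232 to 40279 CPM at D7 (D3 minus D7 0.43, adjusted p = 0.18), and miR-155-5p at 18.2 to 32.1, 48.4 to 57.7 and 23.8 to 59.9 CPM (D3 minus D1 1.03, adjusted p = 0.00647). miR-148a-3p, without a call at D3, was lower at D3 than at D7 (D3 minus D7 -1.41, adjusted p = 2.86e-07), with 11773 to 17239.8 CPM against 32720.0 to 47726 CPM. miR-151-3p and miR-140-3p were also lower at D3 than at D7 (-1.21 and -1.20). miR-99a-5p was lowest at D3, at 25029.5 to 35628 CPM against 39794 to 46915 CPM at D1 and 45886 to 62024 CPM at D7 (adjusted p = 0.00802 and 2.50e-04), and miR-125b-5p was at 13950.4 to 19627 CPM at D7.

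**Figure D3:**
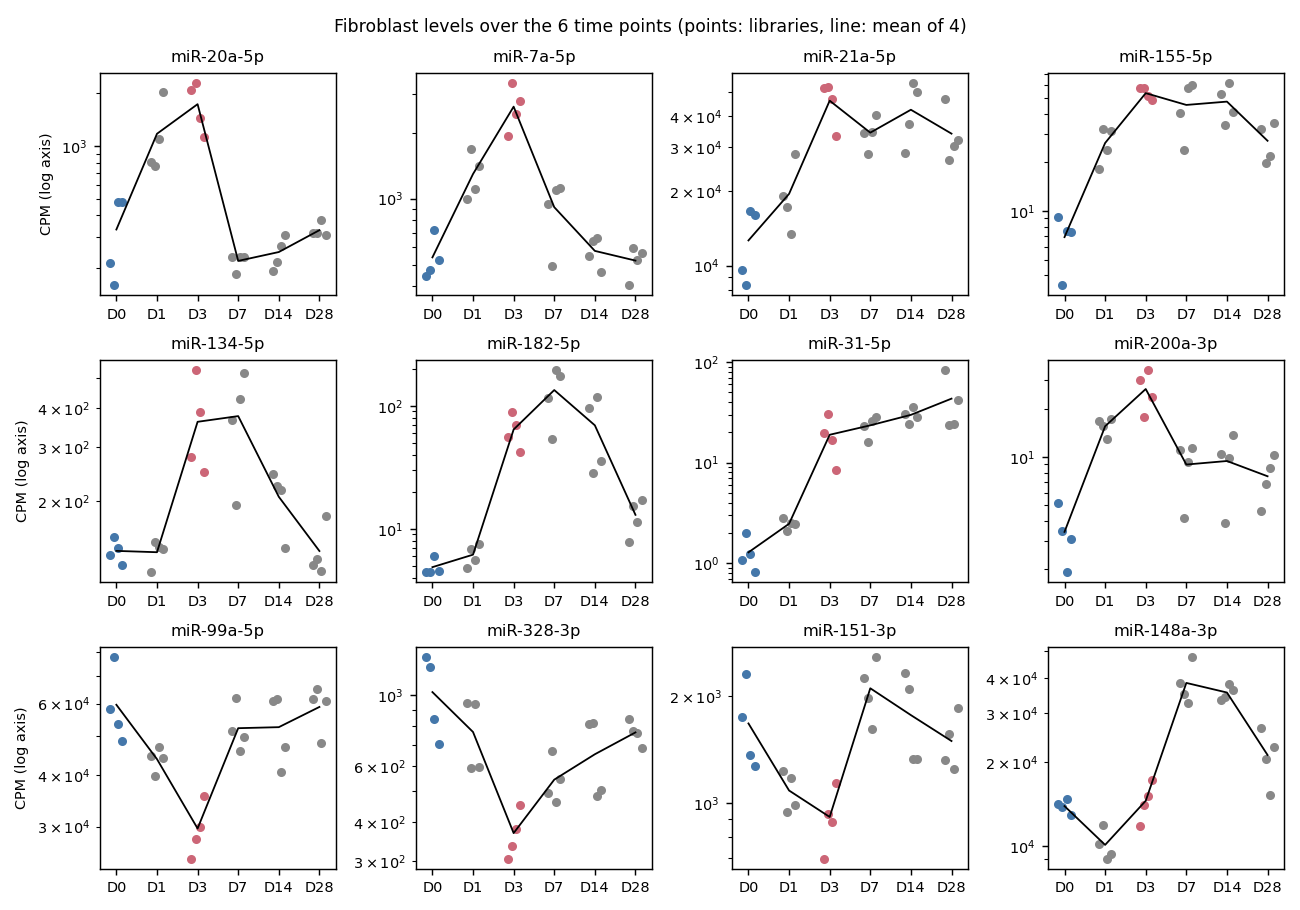
Level of 12 miRNAs in the 24 FB libraries on the 6 days (CPM on a log axis; days in order and not to scale), with D0 in blue, D3 in red, the other days in grey and a line through the means of 4. miR-20a-5p and miR-7a-5p peak at D3, miR-134-5p and miR-182-5p leave the D0 level between D1 and D3, and miR-99a-5p and miR-328-3p have their lowest means at D3.

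The change in FBs was set against that in hematopoietic cells (HCs), the CD45-positive cells isolated from the same hearts, whose libraries had the same input of RNA, 150 ng, and the same 15 cycles of amplification. For each day the pools of the cell types came from the same animals, and which pools match was not used. The interaction was tested on the 48 libraries of both cell types, and CPM here are scaled over these 48. Replicate 3 of HC D0 held only 18286 counts, against 26449253 to 29504666 in the other 3, and the study left out 1 HC library of D0 without naming it. It was kept here, and without it 259 miRNAs differed, and the 10 differences named below, as well as those of miR-155-5p, miR-31-5p, miR-182-5p, miR-200a-3p, miR-20a-5p and miR-210-3p, kept their direction and call. Of 696 miRNAs 256 (36.8%) changed differently, 185 (26.6%) with the FB change above that of HCs and 71 (10.2%) below it. With library size alone the counts were 135 and 123, and the median difference moved from 0.33 to -0.08, so that the direction of small differences depends on the scaling.

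The largest differences at 100 CPM or more in FBs were mostly of miRNAs that changed in HCs. For miR-145a-5p the log2 fold change was 0.10 in FBs and -2.66 in HCs (interaction 2.76, adjusted p = 1.04e-07), and for miR-126a-3p -0.21 and -2.69. For miR-146a-5p it was 0.16 and -2.20 (interaction 2.36, adjusted p = 7.98e-09), with a mean level of 949 CPM in FBs and 6972 CPM in HCs at D3. miR-486a-5p, which has the same counts as miR-486b-5p in FBs, and miR-486b-3p, both of red cells, fell in HCs, by 2.96 and 2.99. In the other direction, miR-574-5p fell in FBs (-0.98) and had 0.80 in HCs, and miR-340-5p and miR-222-3p had 1.73 and 1.29 in HCs against 0.19 and -0.12 in FBs. miR-423-5p (interaction -0.76, adjusted p = 0.0271) and miR-98-5p (-0.73, adjusted p = 0.00615) gave the smallest of the 10 differences named. The call of miR-423-5p was lost with no filter and without replicate 1 or 2 of FB D0, replicate 1 of FB D3 or replicate 3 of HC D3, and that of miR-98-5p with no filter.

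Some rises of FBs differed from HCs and others did not. miR-155-5p rose in FBs from 9.08 to 68.4 CPM and fell in HCs from 158 (187 without replicate 3 of D0) to 85.4 CPM (interaction 3.89, adjusted p = 2.73e-09). miR-31-5p, miR-182-5p and miR-200a-3p gave interactions of 5.44, 4.35 and 3.44, and miR-200a-3p, at 4.57 CPM in FBs at D0, was higher in HCs, at 51.2 CPM (68.2 CPM without replicate 3 of D0). Of the Dlk1-Dio3 list 40 of 73 arms changed more upward in FBs and none less, and miR-134-5p was at 454.9 CPM in FBs and 6.90 CPM in HCs at D3. For miR-7a-5p (2.26 in FBs, 1.91 in HCs, adjusted p = 0.394) and miR-21a-5p (1.84 and 1.31, adjusted p = 0.199) a difference was not detected. miR-20a-5p rose more in FBs (2.35) than in HCs (0.87, interaction adjusted p = 0.00217). miR-210-3p rose less in FBs, by 0.90 against 2.82 in HCs (interaction -1.92, adjusted p = 5.61e-05), and the falls of miR-125a-5p were -1.24 in FBs and -3.01 in HCs. For all 8 leukocyte markers the highest FB library of D3 was below the lowest HC library of D3, with miR-142a-3p at 70.2 CPM in FBs and 6889 CPM in HCs and miR-223-3p at 1.497 and 1666 CPM at D3.

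**Figure D4:**
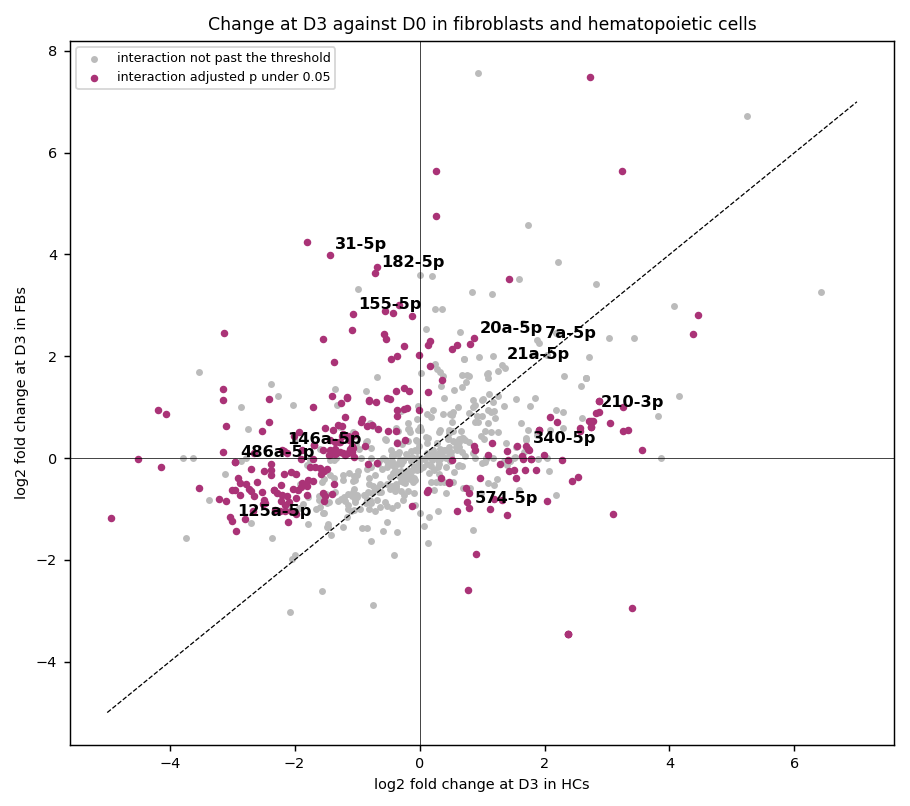
Log2 fold change at D3 against D0 in HCs (horizontal axis) and in FBs (vertical axis) of the 696 miRNAs tested in both, with those past an adjusted p of 0.05 for the difference in purple and the line of equal change dashed. miR-155-5p, miR-31-5p and miR-182-5p lie high above the line, and miR-7a-5p and miR-21a-5p lie near the line.

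Scaling cancels in the ratio of the 5p to the 3p arm of a hairpin. It was tested with limma on log2 of the ratio of counts, each with 0.5 added, for the 141 hairpins where each arm averaged 10 counts or more, and changed in 38 (27%), 16 (11.3%) toward the 5p arm and 22 (15.6%) toward the 3p arm. The groups did not overlap in 25 (17.7%). With only the D0 and D3 libraries in the fit 11 hairpins passed.

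Where both arms averaged 50 counts or more, the 4 largest shifts toward 3p were all in the Dlk1-Dio3 region. For miR-154 the log2 ratio was 3.59, 2.04, 2.97 and 2.78 at D0 and 0.59, 0.35, 0.75 and 0.77 at D3, a change of -2.23 ± 0.31 (SE, n = 4 per group, adjusted p = 3.26e-05), and its 3p counts were 22, 4, 36 and 32 at D0 and 290, 160, 147 and 193 at D3. The D3 libraries lay close together and below all of D0. miR-376b changed by -2.10, miR-485 by -1.87 and miR-369 by -1.39 (adjusted p = 2.74e-04, 3.26e-05 and 0.0182), all without overlap. For miR-376b all D0 ratios were above 0 and all D3 ratios below it, so that the arm with more counts changed.

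Toward 5p, miR-503 changed by 1.61 ± 0.32 (SE, adjusted p = 0.00118), from log2 ratios of 0.93, -0.25, 1.03 and 0.86 at D0 to 3.17, 2.34, 1.83 and 1.68 at D3. Its 3p arm did not rise with the 5p arm (log2 fold change of miR-503-3p -0.27, 95% interval -0.91 to 0.37). miR-17 changed by 1.21 (adjusted p = 0.00373), although both of its arms rose, and miR-674 by 1.16 (adjusted p = 0.00386). miR-127 changed by 1.11 with overlap (adjusted p = 0.0105), and its 5p arm was the far rarer of the pair. The calls of miR-127 and miR-369 were lost with only D0 and D3 in the fit, and that of miR-369 also without replicate 2 of D0 or replicate 1 of D3.

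**Figure D5:**
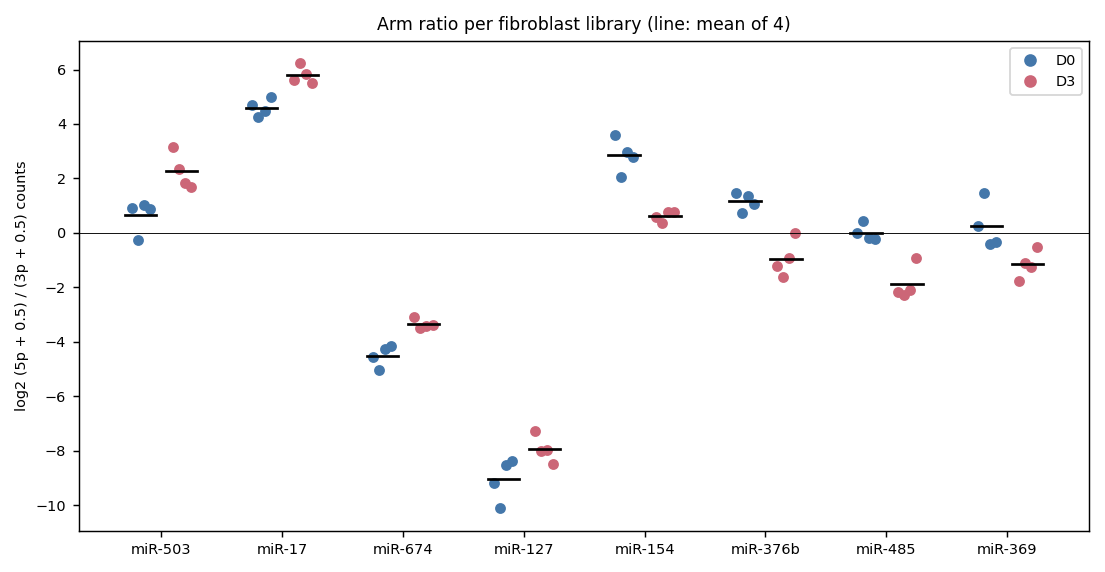
Log2 ratio of 5p to 3p counts (0.5 added to each) of 8 hairpins in each FB library, D0 in blue and D3 in red, with the mean of 4 as a line; values above 0 have more 5p. The first 4 hairpins moved toward 5p and the last 4 toward 3p, and the days overlap only in miR-127.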

How the data were processed

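Small RNA libraries (NEBNext kit, 150 ng of total RNA, 15 cycles for FBs and HCs) were processed by the authors with Trim Galore, Bowtie2 and SAMtools in the nf-core smrnaseq pipeline, without reads under 18 nt, against miRBase v21 and mm10, and the read counts per mature miRNA were deposited for each of the 96 libraries. Tool versions and the treatment of reads that match several miRNAs are not given in the sources used here. The 96 hairpin tables were not used, and the row of reads without a match stayed out of library sizes.

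Counts were analysed in R 4.3.3 with edgeR 4.0.16 (filterByExpr, TMM, quasi-likelihood test, day as a factor with 6 levels over 24 FB libraries, Benjamini-Hochberg adjustment), and day by cell type over 48 libraries for FBs against HCs. Arm ratios were tested with limma 3.58.1. Both were also run on simulated data with known changes, and no result given here rests on those runs. Alternatives were DESeq2 1.42.0, RLE and library size scaling, no filter or 10 CPM, only the days compared, a replicate block, identical counts once, a minimum log2 fold change of 1 and each library left out. Members and lists were chosen with earlier results of these data known. Named miRNAs were the 10 largest rises and falls at 100 CPM or more without overlap, the most abundant and the most abundant not called, list members (all where 4 or fewer were tested, otherwise the 3 largest changes at 10 CPM or more), markers, the 4 largest arm shifts each way, the 5 largest FB against HC differences each way and the 3 largest for D1 and D7 each way. Others named from the lists, and the 12 of low level, were chosen after their values were seen. Precision is limited by 4 libraries per group and, for low levels, by counting.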

Additional observations from a re-analysis of the deposited data

Results flagged for a closer look

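Of the 274 groups of 4 libraries examined for the named miRNAs and arm ratios, 10 held 1 library whose gap to the others exceeded Dixon's 95% limit, and chance alone gives about 1 in 20. At D0 these were replicate 1 for miR-30c-5p (6344 CPM, others 7311 to 7492 CPM), replicate 2 for miR-181c-5p (43.7 CPM, others 115 to 136 CPM) and miR-214-3p (372 CPM, others 480.1 to 505 CPM), and replicate 3 for miR-126a-3p (22808 CPM, others 29794 to 31394 CPM) and miR-182-5p (6.00 CPM, others 4.47 to 4.58 CPM). At D3 they were replicate 1 for miR-29c-3p (6914 CPM, others 3787 to 4139 CPM) and miR-181a-2-3p (24.6 CPM, others 35.7 to 36.4 CPM), and replicate 4 for miR-7a-1-3p (4.88 CPM, others 6.96 to 7.05 CPM). The arm ratio of miR-503 in replicate 2 of D0 (-0.25) and that of miR-485 in replicate 4 of D3 (-0.93) also lay apart.

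The change at D3 differed between FBs and HCs by an interaction test for the 10 miRNAs named by size (edgeR, Benjamini-Hochberg). The FB change was above that of HCs by 2.88 for miR-486a-5p (adjusted p = 0.00026), 2.76 for miR-145a-5p, 2.48 for miR-126a-3p, 2.37 for miR-486b-3p (adjusted p = 0.00418) and 2.36 for miR-146a-5p on the log2 scale. The difference was -1.78 for miR-574-5p, -1.55 for miR-340-5p, -1.40 for miR-222-3p, -0.76 for miR-423-5p (adjusted p = 0.0271) and -0.73 for miR-98-5p (adjusted p = 0.00615).

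Between days of FBs, D3 minus D1 was 1.47 for miR-379-3p, 1.45 for miR-411-3p, 1.40 for miR-134-5p, -1.16 for miR-151-5p (adjusted p = 0.0102), -1.06 for miR-328-3p and -1.02 for miR-122b-3p (adjusted p = 0.0168). D3 minus D7 was 2.98 for miR-20a-5p, 2.87 for miR-17-5p, 2.86 for miR-106a-5p, -1.41 for miR-148a-3p, -1.21 for miR-151-3p and -1.20 for miR-140-3p.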

How the results depend on the processing

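The 242 miRNAs changed at D3 became 157 of 288 with a filter at a mean of 10 CPM and 117 with a minimum log2 fold change of 1, and 191 to 256 when 1 library was left out. The other settings gave 209 to 254, and no changed miRNA became changed in the other direction. The difference from D1, 156 miRNAs, became 100 with the 10 CPM filter, 71 with that minimum, and 97 to 180 without 1 library. That from D7, 165, became 71 with that minimum and 128 to 163 without 1 library. The FB against HC count, 256, was 229 to 261 without 1 library. The 38 arm ratios became 11 with only D0 and D3 in the fit, which leaves fewer libraries for the spread, and 27 to 44 without 1 library. With the replicate number as a block the count at D3 was 234. The replicate numbers are not said to mark shared animals across days, and libraries were not paired by them. In their deviations from the group means, same-numbered libraries correlated by -0.04, 0.14, -0.23 and -0.19, and not every library correlated best with its own number. With 4 libraries per group these values cannot show whether same-numbered libraries share a batch.

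For the 132 miRNAs named in the comparison of D3 with D0, 1948 of 2095 values under the alternatives had the same direction and call, 47 lost the call and 52 gained one. Some miRNAs that did not pass the threshold at D3 changed sign, and the cause was not tested except for library size, which moved all values upward. Under library size alone the log2 fold change became 0.21 for miR-26a-2-3p, 0.069 for miR-10b-5p, 0.10 for miR-10a-5p, 0.26 for miR-222-3p, 0.13 for miR-126a-3p, 0.14 for miR-142a-5p, 0.22 for miR-342-3p, 0.082 for miR-144-3p and 0.30 for miR-486a-5p. With only the 2 days it became -0.031 for miR-130a-3p, -0.027 for miR-455-3p and -0.014 for miR-142a-3p. Without a filter it was 0.0061 for miR-222-3p, 0.0020 for miR-342-3p and 0.050 for miR-486a-5p, and with the 10 CPM filter 0.023, 0.010 and 0.052. miR-486a-5p was at 0.053 with the replicate block and at 0.0067 with identical counts taken once. Without 1 library the ranges were -0.20 to 0.11 for miR-26a-2-3p, -0.48 to 0.015 for miR-10a-5p, -0.18 to 0.13 for miR-130a-3p, -0.075 to 0.34 for miR-145a-5p, -0.11 to 0.0096 for miR-222-3p, -0.052 to 0.22 for miR-455-3p, -0.076 to 0.42 for miR-133b-3p, -0.43 to 0.26 for miR-142a-5p, -0.15 to 0.084 for miR-342-3p, -0.11 to 0.35 for miR-133a-3p, -0.14 to 0.48 for miR-142a-3p, -0.67 to 0.10 for miR-144-3p, -0.27 to 0.27 for miR-486a-5p and -0.028 to 0.18 for miR-148a-3p.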
